A study of Mus musculus with 7 samples.

Results

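HL-1 cells were grown through 2 independent time courses, and the small RNA libraries of time course 2 were compared here with those of time course 1. The course was read from the repeat number in each sample title. This placed 4 of the 7 libraries (days 1, 2, 3 and 4) in time course 2. The other 3 libraries (days 1, 3 and 4) were in time course 1. The study describes a repeat without day 2, as in time course 1, so the numbers give no order. HL-1 is a mouse line derived from atrial cardiomyocytes that can beat in culture. All cultures were of this 1 line, the labels name no treatment, and the days count time in culture. The study describes cells that did not beat on day 1 and mostly beat by day 4. Each library held between 4945112 and 6899476 miRNA tags, a tag being 1 sequence read, and the tags were counted as raw reads for each miRNA strand (the 5p or the 3p arm of a hairpin). The question was how far an independent repeat of the same culture, at the same days, gave the same miRNAs, strands, ends and lengths. Culture, RNA preparation and sequencing run of a course cannot be told apart. The p-values measure only spread between these libraries, and those for single strands or hairpins also borrow variance from the others tested. Libraries of a course are different days, so n does not count replicate cultures. An SD over them also holds change over the days.

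A miRNA is cut from a hairpin precursor, first by Drosha in the nucleus and then by Dicer in the cytoplasm, and 1 strand of the resulting duplex is usually kept in an Argonaute protein. The bases 2 to 8 of that strand, the seed, pair with target mRNAs, so that miRNAs sharing a seed are grouped as a family. In cardiac muscle the best known members are miR-1, miR-133, miR-208 and miR-499, while the let-7 family is known for its rise with differentiation and miR-210 for its induction in low oxygen. Mature ends vary: a 5′ isomiR starts at another base than the reference and so has another seed, and a 3′ isomiR ends at another base.

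Both courses carried the marks of muscle cells. The 8 muscle miRNA hairpins (miR-1a, 133a, 133b, 206, 208a, 208b, 486 and 499) made up 9.68% to 11.7% of the tags in time course 1 and 10.2% to 11.4% in time course 2, and these ranges overlapped. Markers of other cells were low in both: fibroblast miRNAs held at most 0.00354% of tags in any library, blood miRNAs at most 0.00592%, epithelial miRNAs at most 0.00186%, and the liver miRNA miR-122 at most 0.000518%. The endothelial miR-126 reached 0.0930% and a list of neuronal miRNAs 0.231%, with overlapping ranges in the 2 courses. Of the 11 neuronal strands tested, miR-129-3p was called higher and miR-124a-5p lower in time course 2. miR-124a-5p had under 10 tags in every library of time course 2 and was kept for testing through time course 1. No strand of the lists for the other non-muscle cells was called. Of the 12 muscle strands tested, miR-486-5p was called higher and miR-208a-3p lower. Over all strands tested 10.3% were called. The part of other cells in the results was not tested.

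Sequences of the strands on which the comparison turned are given as in RefSeq (GRCm38.p6), 5′ to 3′, with the seed in capitals. The let-7 family is shown first because 6 of its 5p strands were lower in time course 2 and all 6 have the same seed. The strands let-7a and let-7c differ at 1 base, as do let-7b and let-7c.
let-7a-5p: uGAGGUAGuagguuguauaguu
let-7b-5p: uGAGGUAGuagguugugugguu
let-7c-5p: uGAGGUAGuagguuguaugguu
let-7e-5p: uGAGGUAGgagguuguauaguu
let-7i-5p: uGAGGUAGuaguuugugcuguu
miR-98-5p: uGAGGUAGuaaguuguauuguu

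Strands whose values are described in detail below, each with a seed of its own, follow. Both strands are given for miR-31 and miR-652, since the former differed on both and the latter on 1 of them.
miR-31-5p: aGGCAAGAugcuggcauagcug
miR-31-3p: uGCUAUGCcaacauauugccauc
miR-652-5p: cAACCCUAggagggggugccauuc
miR-652-3p: aAUGGCGCcacuaggguugug
miR-210-3p: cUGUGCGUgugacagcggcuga
miR-149-5p: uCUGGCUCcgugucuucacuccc
miR-340-3p: uCCGUCUCaguuacuuuauagc
miR-342-3p: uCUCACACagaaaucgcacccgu

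A last set serves to show near-identical strands. miR-20a and miR-20b share the seed of the miR-17 family and differ at 2 of 23 bases, and miR-743a and miR-743b, from 1 cluster on chromosome X, differ at 3 of 22.
miR-20a-5p: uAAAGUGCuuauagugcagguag
miR-20b-5p: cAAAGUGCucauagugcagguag
miR-743a-3p: gAAAGACAccaagcugaguaga
miR-743b-3p: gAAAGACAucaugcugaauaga

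Abundance differed between the courses for a minority of strands. Of 506 strands tested with the day of culture in the model, 52 were called at an adjusted p under 0.05 (10.3%), 33 higher (6.52%) and 19 lower (3.75%) in time course 2, by edgeR's quasi-likelihood test with Benjamini-Hochberg adjustment. Called strands lay from 1.52-fold to 18.7-fold apart. Every one of the 52 went the same way on days 1, 3 and 4, whereas 242 of all 506 strands (47.8%) did so. The calls were made on these same day differences, so this agreement follows largely from the selection. The values of the courses did not overlap for 46 of the 52. Among all 506 strands, 57 (11.3%) were higher and 50 (9.88%) lower in every library of time course 2 than in every library of time course 1. The biological coefficient of variation was 0.261. The day 2 library has no partner in time course 1, so its own level does not enter the modelled difference.

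How many strands were called depended on the settings and on which library was left out. With library totals in place of TMM 33 were called, and under a minimum of 50 tags per library, which left 299 strands, 9 were called. Without the day 1 library of time course 1, 0 strands were called by edgeR, with 67 at an unadjusted p under 0.05, and without the day 3 library of time course 2, 3 were called. Leaving out the day 4 library of time course 2 gave 12 calls, the day 3 library of time course 1 gave 19, and the other 3 libraries gave 45 to 59. With day in the model, leaving out either library of a shared day also takes its partner out of the estimate. Both fits of that day rest on the same remaining pairs, so log2 differences could be close where calls were not. miR-335-5p had 3.34 without the day 1 library of time course 1 and 3.40 without that of time course 2 (edgeR's adjusted p = 0.234 and 1.61e-05). A change in the number of calls thus does not single out the library left out. Of the 52 called strands, 3 (miR-31-5p, miR-31-3p and miR-149-5p) passed in 6 of the 7 fits that left out a library, and 0 passed in all 7. The direction of the 52 did not change in any of these fits or in the other settings tried, 914 values in all. These fits use the libraries on which the strands were called, so the unchanged direction is not separate support.

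**Figure D1:**
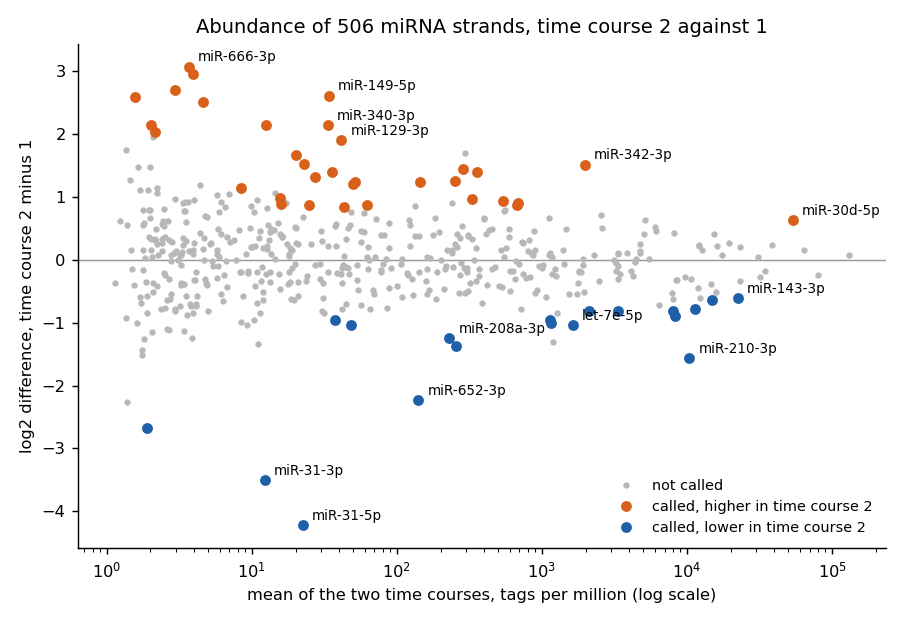
Each point is 1 of 506 miRNA strands, with its mean level in CPM on a log axis against the log2 difference of time course 2 minus time course 1. Orange points (33) were called higher and blue points (19) lower in time course 2 at an adjusted p under 0.05, and grey points were not called.

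The levels of the most abundant strands were compared next. Levels are given as CPM, the tags of a strand scaled by the library total and by TMM factors, which correct that total for composition. miR-145a-5p, a smooth muscle and cardiovascular miRNA and the most abundant strand, had 130370 ± 12870 (SD, n = 3) in time course 1 and 131120 ± 12977 (SD, n = 4) in time course 2, a log2 difference of 0.08 with a standard error of 0.15 (edgeR's adjusted p = 0.765). The muscle miRNA miR-1a-3p had 62172 ± 10956 and 66940 ± 4836, a log2 difference of 0.16 (SE 0.16, edgeR's adjusted p = 0.577). Of the 10 most abundant strands (miR-145a-5p, miR-24-3p, miR-1a-3p, miR-30d-5p, miR-301a-3p, miR-29a-3p, miR-125b-5p, miR-30b-5p, miR-99a-5p and miR-133a-3p), 1 was called, where 10.3% of all 506 strands were called. This was miR-30d-5p, with 40574, 46008 and 44935 CPM on days 1, 3 and 4 of time course 1 against 69186, 51258, 60924 and 74156 on days 1 to 4 of time course 2. The groups did not overlap, and the level was 1.55-fold higher in time course 2 (log2 difference 0.63, SE 0.16, edgeR's adjusted p = 0.0210). The other 9 had log2 differences from -0.33 for miR-133a-3p to 0.23 for miR-301a-3p, and none passed the test. Not passing does not show that their levels were equal. miR-30d-5p itself passed in 2 of the 7 fits that left out a library.

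miR-31 was furthest apart among strands lower in time course 2. It lies on chromosome 4 (GRCm38, 88910557 to 88910662, minus strand) within an exon of a long noncoding RNA gene, and is known in other tissues for roles in muscle precursors and tumours. It was chosen after its values were seen, since its strands hold fewer than the 1000 tags that the rule for named strands asked for. miR-31-5p had 67.4, 32.8 and 25.2 CPM on days 1, 3 and 4 of time course 1, and 2.14, 5.86, 2.58 and 1.59 on days 1 to 4 of time course 2. These 4 values rest on 10 to 33 tags. The lowest library of time course 1 stood above the highest of time course 2, and the level was 18.7-fold lower in the latter (log2 difference -4.22, SE 0.34, edgeR's adjusted p = 1.19e-07). The opposite strand miR-31-3p went with it, from 24.2, 19.2 and 22.1 to 2.29, 4.98, 1.38 and 2.07 CPM, which was 11.4-fold lower (edgeR's adjusted p = 1.50e-06). Its courses did not overlap either. miR-31 and miR-340 were the only hairpins with both strands called. A 21-nt tag, 1 base shorter than the reference at the 3′ end, was the most frequent form of miR-31-5p over all libraries, with 37.2% ± 5.61 (SD, n = 3) of its tags in time course 1 and 35.1% ± 14.5 (SD, n = 4) in time course 2.

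miR-210-3p was the most abundant strand with a difference of more than 2-fold. This strand, the product of a hairpin on chromosome 7 (141221384 to 141221493, minus strand), had 9629, 16643 and 21864 CPM on days 1, 3 and 4 of time course 1, and 4006, 3049, 4534 and 7450 on days 1 to 4 of time course 2. All values of time course 2 lay below those of time course 1, and on each shared day the level was lower in time course 2. The difference was 2.96-fold (log2 -1.56, SE 0.21, edgeR's adjusted p = 5.30e-05). Its opposite strand miR-210-5p had a log2 difference of -0.13 (edgeR's adjusted p = 0.813), with 93.5 to 532 CPM in time course 1 and 110 to 478 in time course 2. A tag of miR-210-3p with 1 mismatch held 7.20% of its tags in the day 4 library of time course 2, against 1.59% to 2.35% in the others. On tags without a mismatch the log2 difference was -1.62, and without the day 3 library of time course 2 it was -1.41 (edgeR's adjusted p = 0.138).

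Other strands lower in time course 2 included miRNAs of muscle and metabolic genes. miR-652-3p, from an intron of Tmem164 on chromosome X, had 322, 156 and 231 CPM on days 1, 3 and 4 of time course 1, and 67.3, 27.5, 50.7 and 32.6 on days 1 to 4 of time course 2. The courses were well apart, with a 4.70-fold lower level in time course 2 (edgeR's adjusted p = 5.53e-05). miR-33-5p, from an intron of the sterol regulator Srebf2, had 416, 361 and 284 against 120, 209, 153 and 133 CPM, again without overlap (2.59-fold lower, edgeR's adjusted p = 0.00328). miR-208a-3p, from an intron of the alpha myosin heavy chain gene Myh6, had 252, 430 and 289 against 103, 131, 117 and 196 (2.37-fold lower, edgeR's adjusted p = 0.0124). The other strand of this hairpin, miR-208a-5p, carried most of its tags and had a log2 difference of 0.08 (edgeR's adjusted p = 0.884). The other named strands lower in time course 2 were miR-125a-3p, miR-20a-5p and miR-511-3p, with log2 differences between -1.04 and -0.95.

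**Figure D2:**
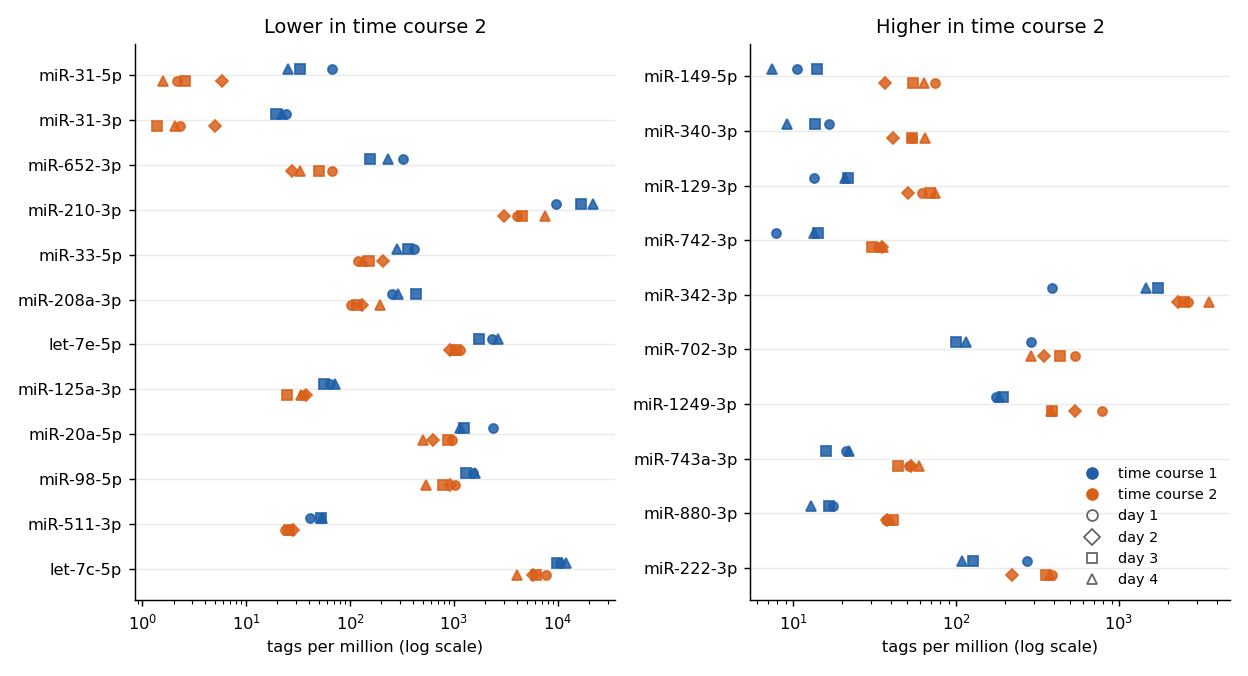
Levels in CPM (log axis) of strands lower (left) and higher (right) in time course 2, with 1 marker per library, blue for time course 1 and orange for time course 2, and the marker shape for the day. The courses are apart in each row except for miR-702-3p and miR-222-3p, where they overlap.

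In the let-7 family 6 strands were lower in time course 2. let-7 strands repress growth genes and are plentiful in differentiated cells. Of the 9 hairpins, the main 5p strands of 6 were called lower (let-7a, 7b, 7c, 7e, 7i and miR-98), 0 were called higher, where 3.75% of all strands tested were called lower, and let-7g-5p and let-7f-5p had log2 differences of -0.72 and -0.62 (edgeR's adjusted p = 0.0511 and 0.0629). Some of these strands differ at 1 base, as let-7a-5p from let-7c-5p and let-7e-5p, and let-7b-5p from let-7c-5p. Tags can be split between them, so the 6 calls are not 6 separate measurements. The median over the 9 main strands was -0.81, against 0.04 over all strands tested. let-7e-5p had 2318, 1736 and 2624 CPM on days 1, 3 and 4 of time course 1 and 1152, 924, 1054 and 1005 on days 1 to 4 of time course 2. The 4 values of time course 2 were all lower, by 2.05-fold in the model (edgeR's adjusted p = 0.0122). let-7c-5p had 10462, 9845 and 11868 against 7611, 5754, 6101 and 4055, a 1.86-fold difference (edgeR's adjusted p = 0.0193). The main strand with a difference above 0 was let-7d-5p, at 0.49 (edgeR's adjusted p = 0.326). Its level was 568 CPM on day 3 of time course 1 and 1456 to 1844 in every other library, and its log2 difference was 0.22 on day 1 and -0.23 on day 4. None of the 3p strands of the family was called, and their log2 differences ran from -0.19 for let-7i-3p to 0.47 for let-7b-3p.

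The difference in let-7 was widest on day 4. For let-7c-5p the log2 difference was -0.46 on day 1, -0.69 on day 3 and -1.55 on day 4. Without the day 4 library of time course 2 the log2 differences of let-7a-5p, let-7b-5p and let-7c-5p were -0.43, -0.33 and -0.55, and none of the 6 strands was called (edgeR's adjusted p from 0.0956 to 0.312). Without the day 4 library of time course 1, let-7e-5p and let-7i-5p were called, with log2 differences of -0.85 and -0.74. Their log2 differences were nearly the same without the day 4 library of time course 2, at -0.84 and -0.73. The let-7 hairpins together made up 6.21% ± 0.782 (SD, n = 3) of tags in time course 1 and 4.27% ± 1.19 (SD, n = 4) in time course 2.

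Strands higher in time course 2 were scarcer than those lower. Their median total over the 7 libraries was 1590 tags, near the 1545 of all strands tested, compared with 46085 for the 19 strands lower in time course 2. miR-149-5p, from an intron of the proteoglycan gene Gpc1 on chromosome 1, had 10.6, 14.0 and 7.44 CPM on days 1, 3 and 4 of time course 1, and 74.3, 36.8, 54.5 and 63.8 on days 1 to 4 of time course 2. The groups did not overlap (6.10-fold higher, edgeR's adjusted p = 7.39e-06). Both strands of miR-340, from an intron of Rnf130 on chromosome 11, were higher: miR-340-3p by 4.41-fold, from 16.6, 13.6 and 9.24 to 53.8, 40.9, 54.0 and 64.6 CPM (edgeR's adjusted p = 5.30e-05), and miR-340-5p by 3.18-fold (edgeR's adjusted p = 0.000320). For each strand every library of time course 2 was above all of time course 1. miR-129-3p, a miRNA enriched in neurons, was 3.73-fold higher, with 13.5 to 21.6 CPM in time course 1 and 50.8 to 74.3 in time course 2 (edgeR's adjusted p = 7.17e-05).

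miR-342-3p was the most abundant of the strands more than 2-fold higher. It lies in an intron of Evl on chromosome 12 and is known from lymphoid and other cells. Its level was 388, 1728 and 1473 CPM on days 1, 3 and 4 of time course 1, and 2657, 2309, 2504 and 3546 on days 1 to 4 of time course 2. The groups did not overlap, but the day 1 library of time course 1 was far below its course. The model gave a 2.85-fold higher level (log2 difference 1.51, SE 0.33, edgeR's adjusted p = 0.00611), and without that library the log2 difference was 0.84 (edgeR's adjusted p = 0.356). Without the day 1 library of time course 2 it was 0.89 (edgeR's adjusted p = 0.0610).

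The remaining named strands higher in time course 2 came from scattered loci. miR-1249-3p, miR-702-3p and miR-222-3p had log2 differences of 1.26 to 1.44. miR-222-3p is a regulator of the cell cycle and of vascular cells. It had 274, 127 and 109 CPM in time course 1 and 389, 221.8, 355 and 376 in time course 2. Its day 1 value in time course 1 lay within the range of time course 2 (log2 difference 1.26, edgeR's adjusted p = 0.0122). Its neighbour miR-221-3p, with the same seed, had 509, 189 and 20.96 against 438, 73.6, 507 and 379, and was not called (log2 difference 1.69, SE 0.56, edgeR's adjusted p = 0.0597). miR-702-3p is counted among miRNAs made without Drosha. It was the only strand called of the 9 tested from a list of miRNAs made without Drosha or without Dicer. Over all strands tested 10.3% were called.

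A cluster of X-linked miRNAs held 7 strands that were higher in time course 2. The X-linked testis hairpins are known for expression in male germ cells and were read at low levels in HL-1 cells. Of 24 strands tested from 15 of the 16 listed hairpins, 7 were called higher and 0 lower. Among all strands tested 6.52% were called higher. The 7 were miR-742-3p, miR-743a-3p, miR-743b-3p, miR-871-5p, miR-878-3p, miR-880-3p and miR-883b-5p. miR-883b-5p had under 10 tags in every library of time course 1 and passed the filter through time course 2, which leaves 6. All 7 come from 1 cluster on the minus strand of chromosome X (66776757 to 66814025), in which 19 strands were tested, and 0 of the 5 strands tested of the neighbouring cluster of miR-465a, miR-465b and miR-465c were called. The 3p strands of these 3 hairpins share all their tags and are 1 measurement. Counted once, 21 of 22 listed strands had a log2 difference above 0, with a median of 0.81, against 52.2% of all 506 strands and a median of 0.04. The 22 still include miR-883b-5p (log2 difference 2.14), whose direction was set by the filter. miR-743a-3p had 21.08, 15.996 and 22.08 CPM in time course 1 and 51.5, 52.8, 44.0 and 59.7 in time course 2. The difference of 2.62-fold (edgeR's adjusted p = 0.00123) was present on each shared day, at log2 1.28, 1.44 and 1.42. Together the listed hairpins held 0.0200% ± 0.00173 (SD, n = 3) of tags in time course 1 and 0.0396% ± 0.00290 (SD, n = 4) in time course 2. Over all of chromosome X, 11 strands were called higher and 2 lower of 76 tested, and the 11 include the 7 of this cluster. Among all 506 strands 6.52% were called higher and 3.75% lower. The count for the chromosome is thus no result separate from the cluster.

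**Figure D3:**
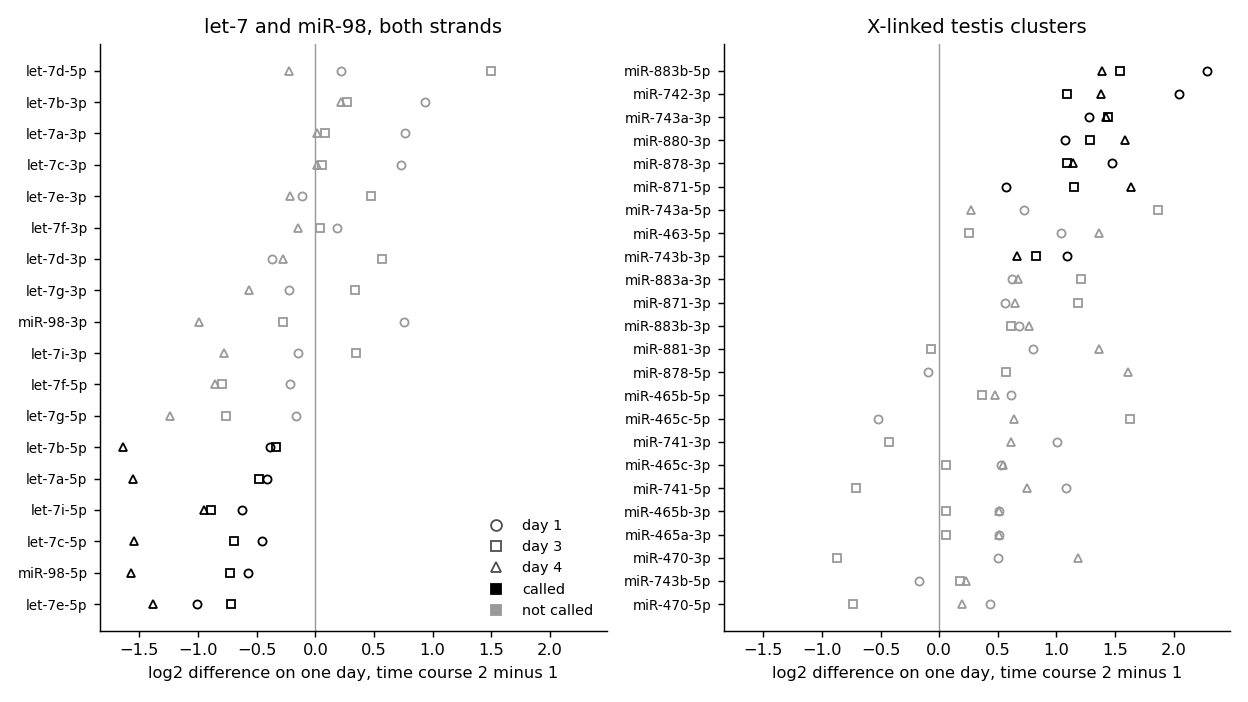
Log2 differences of time course 2 minus time course 1 on days 1, 3 and 4 for both strands of the let-7 and miR-98 hairpins (left) and for the X-linked testis clusters (right), with strands in the order of the modelled difference. Called strands are black and others grey: the 6 called let-7 strands lie left of 0 and the 7 called strands of the X cluster right of 0 on every day.

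The imprinted Dlk1-Dio3 miRNAs of chromosome 12 were near the lower limit of counting. They are expressed from the maternal chromosome in embryo, brain and placenta. Of 48 hairpins placed, 12 strands had enough tags to be tested, and 3 of them, miR-541-5p, miR-666-3p and miR-667-3p, were called higher. All 3 had under 10 tags in every library of time course 1 and passed the filter through the course in which they were high, so that their count and direction are no measure of the group. miR-541-5p had 5, 6 and 5 tags on days 1, 3 and 4 of time course 1, and 55, 23, 42 and 47 on days 1 to 4 of time course 2. The other 9 strands were not called. In all, 6 of the called strands had fewer than 10 tags in every library of time course 1 (miR-541-5p, miR-666-3p, miR-667-3p, miR-669p-3p, miR-883b-5p and miR-1971-5p) and 1, miR-124a-5p, in every library of time course 2. Of the 52, 43 had at least 10 tags in every library, and miR-31-3p and miR-335-5p had fewer than 10 in some libraries only. Leaving out 1 library moved 5 called strands by more than 1.5 times. Besides miR-342-3p, described above, these were miR-335-5p (log2 difference 2.52, and 3.34 and 3.40 without the day 1 library of time course 1 or 2) and miR-1971-5p (2.59, and 3.24 without day 4 of time course 1). miR-669p-3p went from 2.70 to 3.45 without either day 4 library. miR-124a-5p went from -2.68 to -2.06 and -2.04 without the day 3 library of time course 1 or 2, and to -3.41 and -3.40 without that of day 4.

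Other families fixed as lists are set beside all strands, of which 10.3% were called and 47.8% had a log2 difference below 0. The miR-30 family had 1 call of 10 strands, miR-30d-5p, and a median log2 difference of 0.26. The miR-17-92 cluster and its paralogues had 1 higher (miR-20b-5p, log2 0.87) and 1 lower (miR-20a-5p) of 21, with a median of -0.23. Tags of such near-identical strands can be split between them, so both values are uncertain. The miR-23, 27 and 24 clusters had 0 calls of 10 strands and 9 log2 differences below 0, miR-103 and miR-107 had 0 of 4 with 4 below 0, and miR-29 had 0 of 6. miR-143-3p, from the hairpin beside miR-145, was lower by 1.52-fold (edgeR's adjusted p = 0.0397), whereas miR-145a-5p was not called. miR-486-5p and miR-3107-5p lie on opposite strands of 1 locus and share tags, so their calls (log2 0.90 and 0.87) are 1 measurement.

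The sequence make-up of called strands is given as a description, with no test. The median of the mean tag length was 21.9 nt for strands higher in time course 2, 21.8 nt for strands lower and 21.99 nt for all tested. The most frequent tag had a median GC content of 50% in the higher, 40.9% in the lower and 47.8% in all strands. Of the strands higher in time course 2, 45.5% began with U (read as T), compared with 47.4% of those lower and 34.98% of all. Across the 506 strands the log2 difference had a Spearman correlation of 0.159 with mean tag length and 0.00106 with GC content, given as a description only, since strands share libraries and depth.

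The share of the 2 strands of a hairpin differed for miR-652. Of its tags, 2.04%, 2.26% and 3.39% were from the 5p strand on days 1, 3 and 4 of time course 1, and 11.6%, 26.5%, 10.1% and 18% on days 1 to 4 of time course 2, out of 211 to 2358 tags a library. The groups did not overlap, and the difference was 2.52 log2 odds (SE 0.36, limma's adjusted p = 0.0201). The 5p strand itself had 6.70, 3.60 and 8.11 CPM in time course 1 and 8.86, 9.95, 5.67 and 7.16 in time course 2, with a log2 difference of 0.28 (edgeR's adjusted p = 0.669), whereas the 3p strand was 4.70-fold lower. Without either library of day 1 or of day 4 the adjusted p of the share was 0.229 to 0.340. miR-652 was the only hairpin called of 194 tested (0.515%), and with tags without a mismatch it missed the threshold (limma's adjusted p = 0.0511).

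Other hairpins moved less in strand use. The 5p share of miR-208a was 83.9% to 89.3% in time course 1 and 91.8% to 95.9% in time course 2, without overlap, but the difference of 1.33 log2 odds did not pass (limma's adjusted p = 0.125). Among the 194 hairpins, 11 had a higher 5p share in every library of time course 2 (5.67%) and 16 a lower one (8.25%). Over whole libraries, 52.4% to 53.5% of tags were from 5p arms in time course 1 and 54.7% to 57.7% in time course 2. The exact permutation test gave p = 0.0571, the smallest that 4 libraries against 3 allow (35 arrangements, two-sided), and 0.286 after adjustment over the 10 library measures. This test exchanges libraries across days. Exchange within the 3 shared days has 8 arrangements and cannot give a p below 0.25, and this exact p was 0.25 for the 5p share, which was higher in time course 2 on each of those days. miR-30d-5p, at 4.23% ± 0.136 (SD, n = 3) of tags in time course 1 and 6.52% ± 0.701 (SD, n = 4) in time course 2, contributed most. Without this strand the 5p shares were 50.8% ± 0.502 and 52.7% ± 1.19, still apart. Without miR-30d-5p, miR-145a-5p and miR-30c-5p, the 3 strands that rose most, they were 42.2% ± 0.899 and 43.3% ± 0.825, and overlapped. Taking out strands picked for their rise narrows the difference by design.

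**Figure D4:**
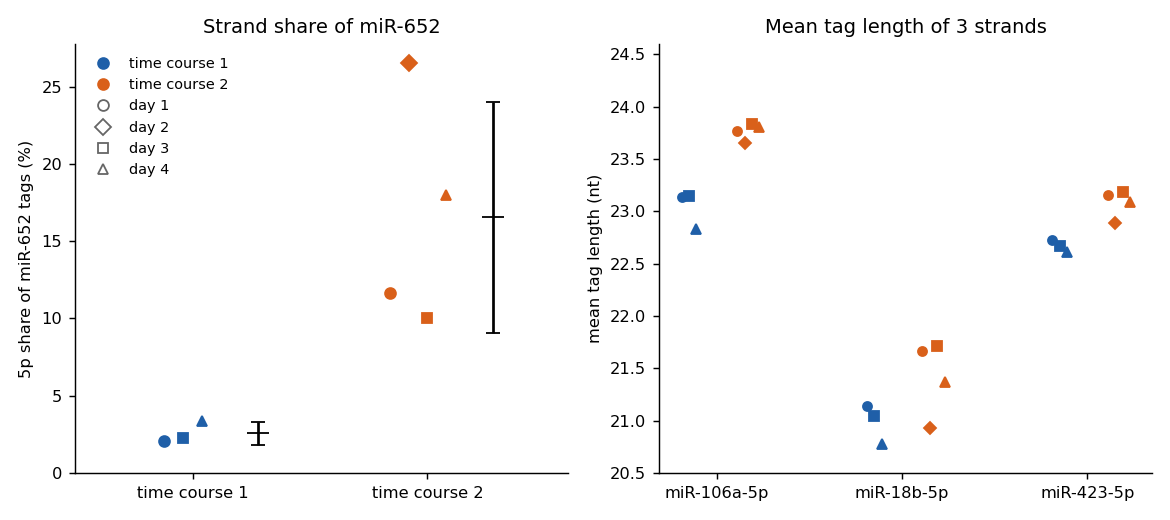
Left, the share of miR-652 tags from the 5p strand in each library (percent), with the mean and SD of each course in black: the 3 libraries of time course 1 lie between 2.04% and 3.39% and the 4 of time course 2 between 10.1% and 26.5%. Right, the mean tag length in nt of 3 strands in each library, on an axis that does not start at 0.

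Differences in the ends were called by edgeR but not by limma, the main test. The share of tags off the reference 5′ start had 0 of 291 strands called by limma, with 38 at an unadjusted p under 0.05 and 3 called by edgeR on both counts. Over whole libraries the share was 4.41% to 5.17% of tags in time course 1 and 4.19% to 5.01% in time course 2. miR-301b-3p, of the miR-130 family, had the lowest p among strands whose courses did not overlap: 1.23%, 1.08% and 0.933% of its tags had another 5′ start in time course 1, and 2.28%, 2.33%, 2.71% and 2.01% in time course 2 (1.12 log2 odds, limma's adjusted p = 0.238). The share of let-7d-5p went the other way, from 5.47%, 6.69% and 4.94% to 3.18%, 3.68%, 3.11% and 3.09% (limma's adjusted p = 0.238). In all, 31 strands had a higher 5′ isomiR share in every library of time course 2 (10.7%) and 20 a lower one (6.87%).

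The share of tags off the reference 3′ end had 0 of 297 strands called by limma, with 22 at an unadjusted p under 0.05 and 4 called by edgeR. Library-wide it was 49.8% to 52.5% in time course 1 and 51.0% to 54.2% in time course 2. The lowest p was that of miR-20b-5p, with 38.5%, 45.2% and 48.5% of tags off the end in time course 1 and 19.4%, 21.4%, 14.9% and 19.5% in time course 2 (-1.86 log2 odds, limma's adjusted p = 0.0987). These groups were far apart. Over all strands, 20 had a higher 3′ isomiR share in every library of time course 2 (6.73%) and 11 a lower one (3.7%). The 23-nt reference form of miR-20b-5p made up 51.5% ± 5.17 (SD, n = 3) of tags in time course 1 and 77.3% ± 3.66 (SD, n = 4) in time course 2. miR-206-3p, a muscle miRNA, had 94.3%, 94.8% and 94.0% against 87.5%, 90.2%, 88.7% and 87.6% (limma's adjusted p = 0.0987), but on tags without a mismatch its difference was -0.20 log2 odds, against -1.20 on all tags.

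Mean tag length was greater in time course 2 for 3 strands. By limma on mean tag length, 3 of 299 strands were called (1%), all longer in time course 2, and 26 (8.7%) were longer and 1 (0.334%) shorter in every library of time course 2. miR-106a-5p had a mean of 23.1, 23.1 and 22.8 nt on days 1, 3 and 4 of time course 1 and 23.8, 23.7, 23.8 and 23.8 nt on days 1 to 4 of time course 2 (0.76 nt, SE 0.083, limma's adjusted p = 0.0294). Its 24-nt form made up 37.2% ± 3.41 (SD, n = 3) of its tags in time course 1 and 53.8% ± 5.94 (SD, n = 4) in time course 2, and its 21-nt form 21.5% ± 3.37 and 6.97% ± 2.19. miR-423-5p, from an intron of Nsrp1, was longer by 0.47 nt, with 22.6 to 22.7 nt in time course 1 and 22.9 to 23.2 nt in time course 2. miR-18b-5p was longer by 0.60 nt on the shared days, though the day 2 library (20.9 nt) lay within the range of time course 1. miR-106a and miR-18b come from 1 cluster on chromosome X and differ from miR-17 and miR-18a at 1 and 2 of 23 bases, so tags may be split between them. No strand was called when either library of day 1 or of day 4 was left out, and 21 were called without either library of day 3.

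The share of long tags in whole libraries did not overlap between the courses. Tags over 24 nt made up 6.99%, 7.08% and 6.24% of tags on days 1, 3 and 4 of time course 1, and 9.17%, 7.88%, 9.73% and 8.38% on days 1 to 4 of time course 2. The exact permutation p was again 0.0571 (adjusted 0.286), or 0.25 within the shared days, the smallest possible there. At each length from 24 to 32 nt the share was higher in every library of time course 2, while mean tag length overlapped, at 22.3 to 22.4 nt and 22.4 to 22.6 nt. By strand, 59 of 262 had a higher share of tags over 24 nt in every library of time course 2 (22.5%) and 4 a lower one (1.53%). The median difference was 0.56 log2 odds, and 214 of the 262 were above 0, with 0 called by limma and 75 at an unadjusted p under 0.05. The strands below contributed most to the library totals: miR-301a-3p, whose tags over 24 nt were 2.09% ± 0.30 (SD, n = 3) and 2.65% ± 0.375 (SD, n = 4) of all tags, and miR-30d-5p, with 0.833% ± 0.188 and 1.29% ± 0.264. Within either strand the share of long tags was close in the courses, at 60.3% ± 1.99 and 63.1% ± 6.05 for miR-301a-3p and 19.6% ± 3.91 and 19.7% ± 2.39 for miR-30d-5p.

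**Figure D5:**
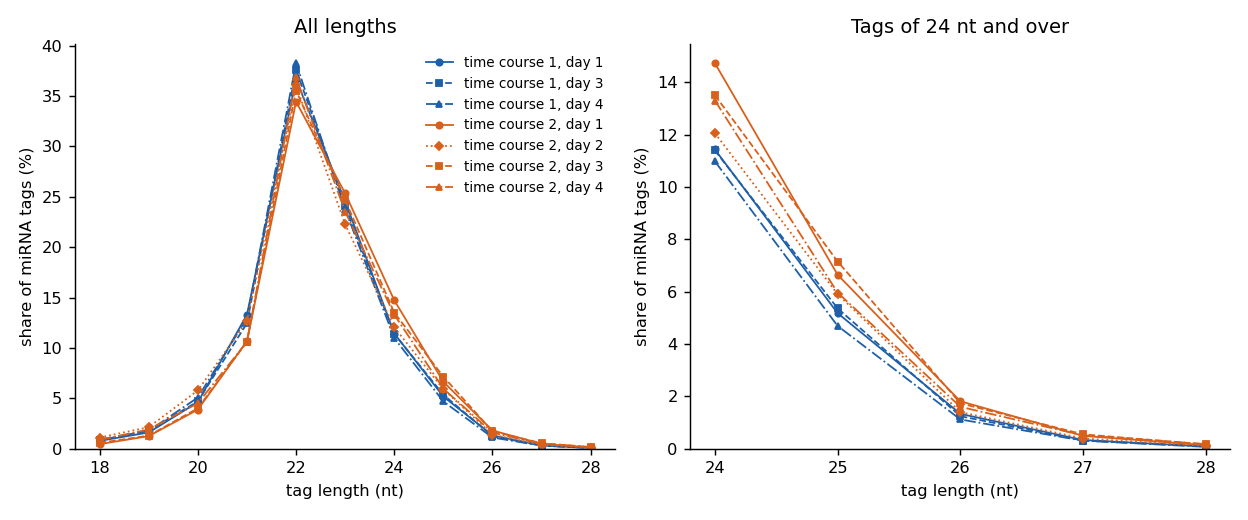
Share of miRNA tags (percent) by tag length in nt for each library, over all lengths (left) and from 24 nt (right), in blue for time course 1 and orange for time course 2 and with line style and marker for the day. All libraries peak at 22 nt, and from 24 to 28 nt the 4 libraries of time course 2 lie above the 3 of time course 1.

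The change over the days of culture was also compared. Of 506 strands, 0 had a slope per day that differed between the courses at an adjusted p under 0.05 by edgeR, with 35 at an unadjusted p under 0.05 and 1 called by DESeq2. The lowest p was that of miR-139-3p, from an intron of Pde2a, whose slope was lower in time course 2 by 1.12 on the log2 scale per day (SE 0.20, edgeR's adjusted p = 0.164).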

How the data were processed

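Small RNA of HL-1 cultures was sequenced on the SOLiD platform. The authors mapped tags to miRBase hairpins and the mouse genome (mm9 in the submitters' processing notes) and deposited, for each library, tag sequences with their raw counts. Here the lines of a tag were summed, giving 79503 distinct tags in libraries of 4945112 to 6899476. Tags were placed with at most 2 mismatches on GENCODE or RefSeq sequences (GRCm38) of 553 of the 572 hairpins the study lists; 0.343% were not placed. A tag belonged to a strand if it began within 3 nt of the reference 5′ start, or of the most frequent start for 278 strands without one, and tags of several strands (2.00%) were divided equally. Counts were rounded for testing.

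Abundance and its slope per day were tested with edgeR 4.0.16 (R 4.3.3), by quasi-likelihood with TMM (factors 0.906 to 1.12) and filterByExpr. Day was a factor beside the time course, which left 2 residual degrees of freedom. Variance borrowed across strands added a median of 16.4 prior degrees of freedom to the abundance test. Shares and lengths were tested with limma 3.58.1 on log2 odds (pseudocount 0.5) and mean nt, given at least 50 tags in every library. Adjustment was by Benjamini-Hochberg over everything tested, at 0.05. Library measures were compared by an exact permutation test, two-sided. DESeq2 1.42.0, voom, other filters, scalings and tag sets, and omission of each library were alternatives. The fits were tested on simulated data.

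Named strands were the 10 most abundant; of called strands with at least 1000 tags and 1 direction on the 3 shared days, the 10 most changed each way; called members of lists; and, for shares, length and slope, the 5 with the largest shift each way among those called or, with none called, the 5 lowest p. The members and lists were chosen with earlier results of these data known. Scarce strands rest on few tags, which are reads and not counted molecules.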

Additional observations from a re-analysis of the deposited data

Results flagged for a closer look

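Among 54 sets of values from the 4 libraries of time course 2, 3 had a library far from the other 3, where chance gives about 1 in 20. miR-24-3p, among the most abundant strands, stood at 95226 CPM on day 4 against 64983, 64615 and 67327 on days 1, 2 and 3. The gap was 0.911 of the range. The share of let-7d-5p tags with another 5′ start was 3.68% on day 2 and 3.09% to 3.18% on the other days. Over whole libraries, 4.19% of tags were off the reference 5′ start on day 1, compared with 4.94% to 5.01% in the other 3 libraries of the course. Time course 1, with 3 libraries, was not examined in this way.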

How the results depend on the processing

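The number of strands called for abundance, 52, was 33 with library totals in place of TMM, 9 under a minimum of 50 tags per library, and 0 to 59 with 1 library left out. For strand share, with 1 hairpin called, 2 were called under a minimum of 200 tags per library, 12 by edgeR on both counts, 0 on tags without a mismatch, and 0 to 13 with 1 library left out. For 5′ ends edgeR called 3, and for 3′ ends 2 were called without day and 4 by edgeR. For tag length, 1 was called without day, 0 on the odds of tags over 24 nt, and 0 to 21 with 1 library left out. For the slope DESeq2 called 1.

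Some values that passed no test changed sign. miR-30b-5p was at -0.0026 by DESeq2 and -0.011 on tags of 21 to 23 nt, the latter a setting chosen after seeing the data. With 1 library left out, miR-30b-5p ranged from -0.042 to 0.11, miR-145a-5p from -0.088 to 0.16, miR-29a-3p from -0.42 to 0.18, and the slope of miR-497a-3p from -1.17 to 0.090. With the most frequent end as reference, the 5′ share of miR-186-3p was 0.61 log2 odds, and the 3′ shares of miR-206-3p, miR-195a-5p, miR-106a-5p and miR-342-5p were 0.93, -0.025, -1.35 and -0.45. Among library measures with 1 library left out, the difference in tags under 20 nt ranged from -0.460 to 0.0559 percentage points, off the 5′ start from -0.254 to 0.143, and with a mismatch from -0.304 to 1.68. The cause was not tested.

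The model pairs libraries by day on the 3 shared days; without day 41 strands were called for abundance, 37 of them among the 52. The exact test of library measures within days was chosen after seeing the data. With 2 residual degrees of freedom and strands of under 10 tags in a course, small differences were not detectable.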
